A study of Mus musculus with 24 samples.

Results

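The transcripts of 10 dual-specificity MAP kinase phosphatase genes were followed across 2 mouse cell lines and 4 treatments: Dusp1, Dusp2, Dusp4, Dusp5, Dusp6, Dusp7, Dusp8, Dusp10, Dusp14 and Dusp16. They were chosen by name as members of this enzyme family, and are 10 of the 43629 gene identifiers in the count table. The established line E0771 is labelled as breast adenocarcinoma and the established line MC38 as colon adenocarcinoma. Each was exposed for 3 h to DMSO, the solvent control, to 2.5 µM RG6146, an inhibitor of the BET bromodomain proteins that read acetylated chromatin, to 10 ng/mL recombinant mouse TNF, or to RG6146 and TNF in combination. Each of the 8 groups had 3 libraries, 24 in all, made with an oligo-dT-primed kit that reads the 3′ ends of transcripts. Growth conditions are described for MC38-Ova cells in every sample, also those labelled E0771, so the exact derivative of each line is not settled here. A treatment was sampled at 1 dose and 1 time. Nothing in the labels shows whether the replicates of a group came from separate cultures, and p-values therefore cover only the spread between these libraries, which may be technical.

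MAP kinases (ERK, JNK and p38) are switched on by phosphorylation of a threonine and a tyrosine in their activation loop, and dual-specificity phosphatases remove both phosphates. Several of these phosphatase genes are themselves transcribed within minutes to hours of kinase activation, which makes them a negative feedback arm of the pathway. The family is usually divided by location and preferred kinase. DUSP1, DUSP2, DUSP4 and DUSP5 are inducible nuclear enzymes, DUSP6 and DUSP7 are cytoplasmic and prefer ERK, DUSP8, DUSP10 and DUSP16 prefer JNK and p38, and DUSP14 is a small atypical enzyme without the kinase-binding domain of the others. TNF is known to activate NF-kB together with JNK, p38 and, more variably, ERK.

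The sequences shown first are the 250 bases before the annotated transcription start of the 3 members that passed the test in any treatment comparison, Dusp1, Dusp8 and Dusp16, with that of Dusp5 for contrast. They are RefSeq promoter windows on GRCm38.p6, written 5′ to 3′ on the strand of the gene, at chr17:26508473-26508722 (minus strand, Dusp1), chr7:142095285-142095534 (minus strand, Dusp8), chr6:134792629-134792878 (minus strand, Dusp16) and chr19:53528895-53529144 (plus strand, Dusp5). Capitals mark matches, on either strand, to the cyclic AMP response element (CRE, TGACGTCA), which CREB and ATF family factors bind, to its core TGACG, and to the CArG box, which serum response factor binds.
Dusp1: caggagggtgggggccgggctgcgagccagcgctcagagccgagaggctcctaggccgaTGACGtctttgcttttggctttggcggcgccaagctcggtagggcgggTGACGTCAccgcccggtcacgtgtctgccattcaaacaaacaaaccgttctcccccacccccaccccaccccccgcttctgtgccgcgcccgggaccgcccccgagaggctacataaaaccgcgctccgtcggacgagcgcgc
Dusp8: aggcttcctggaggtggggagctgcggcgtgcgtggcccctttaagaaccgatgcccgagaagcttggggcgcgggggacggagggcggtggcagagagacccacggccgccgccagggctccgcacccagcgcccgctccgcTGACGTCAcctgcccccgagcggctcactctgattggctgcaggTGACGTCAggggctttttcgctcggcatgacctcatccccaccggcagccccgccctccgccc
Dusp16: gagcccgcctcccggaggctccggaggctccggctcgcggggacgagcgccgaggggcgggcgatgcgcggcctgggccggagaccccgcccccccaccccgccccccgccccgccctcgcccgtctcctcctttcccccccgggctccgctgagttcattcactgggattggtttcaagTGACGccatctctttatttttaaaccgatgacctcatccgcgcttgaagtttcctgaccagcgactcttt
Dusp5: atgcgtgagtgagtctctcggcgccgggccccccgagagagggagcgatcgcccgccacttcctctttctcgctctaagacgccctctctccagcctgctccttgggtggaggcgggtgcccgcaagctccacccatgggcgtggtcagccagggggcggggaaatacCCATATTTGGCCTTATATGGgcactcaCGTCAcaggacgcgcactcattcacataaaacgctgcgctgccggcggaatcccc

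The Dusp8 window held 2 complete CREs, at 107 to 100 and 63 to 56 bases before the start. The Dusp1 window held 1, at 143 to 136 bases, and a separate core at 191 to 187 bases. In Dusp16 the core alone was found, at 70 to 66 bases. Of the 9 members with a window, 2 had a complete CRE, against 1.55% of 32851 promoter windows of the same length, and 4 had the core, against 17.8%. Each complete CRE also contains the core, so these counts overlap. Dusp5 had 2 adjacent CArG boxes, at 82 to 73 and 72 to 63 bases before the start, and a core at 55 to 51 bases. A CArG box was present in 1.47% of all windows and in no other member. The AP-1 motif TGANTCA was found in 0 of the 9 members and 6.75% of all windows, and the NF-kB consensus in 0 of the 9 and 7.25%. The members' windows had 56.4 to 77.2% G and C, against a median of 52.4%, and a ratio of observed to expected CpG of 0.629 to 0.981, against a median of 0.373. These matches describe letters in a window; binding was not measured.

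**Figure D1:**
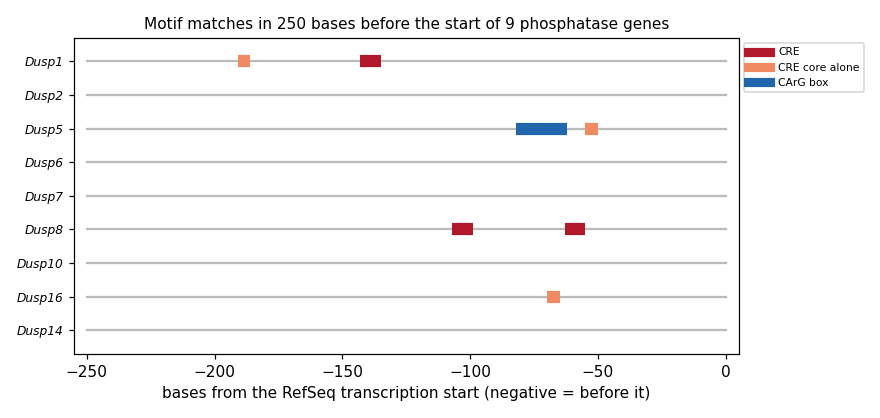
Positions of motif matches in the 250 bases before the RefSeq transcription start of 9 phosphatase genes (x axis, bases from the start; 1 line per gene). Coloured blocks are complete CREs, cores outside a CRE and CArG boxes: Dusp8 carries 2 complete CREs and Dusp1 carries 1, Dusp5 carries the 2 CArG boxes, and 5 genes carry none of the 3.

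All 10 genes are protein-coding and lie on 10 different chromosomes in mm10. The members that the results turn on are Dusp1 (chromosome 17, 26505590 to 26562128, minus strand), Dusp8 (chromosome 7, 142079490 to 142095843, minus strand), Dusp16 (chromosome 6, 134715468 to 134792625, minus strand), Dusp5 (chromosome 19, 53529109 to 53542431, plus strand), Dusp10 (chromosome 1, 184013302 to 184075636, plus strand) and Dusp2 (chromosome 2, 127336159 to 127338376, plus strand). Exons on the opposite strand overlap Dusp5 by 547 bases (AC137853.2, an antisense gene), Dusp8 by 66 bases (Gm32786) and Dusp1 by 11 bases (Ergic1). The strand setting of the read counting is not given in the sources used here, so reads of these pairs may be mixed.

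The libraries held 5392406 to 9132814 counts in E0771 and 5392808 to 9673118 in MC38. Mitochondrial ribosomal RNA made up 1.69 to 3.23% of counts in 22 libraries, 0.376% in replicate 2 of E0771 with TNF and 0.609% in replicate 2 of MC38 with DMSO. Markers of leukocytes summed to 1999 CPM (counts scaled to a common library total) in MC38 combination replicate 2, while the remaining 11 libraries of that line held 5.98 to 34.8 CPM and the 12 E0771 libraries held 114 to 214 CPM. In E0771 with DMSO most of this sum was S100a8, at 116 to 158 CPM, and Ptprc was at 0, 0.537 and 1.02 CPM. Where libraries that stand apart are named below, 4 were left out. They are E0771 TNF replicate 2, MC38 DMSO replicate 2, MC38 combination replicate 2 and MC38 TNF replicate 1. The last of them lay apart in an earlier analysis of the same data. The 10 epithelial markers summed to 87.0 to 121 CPM in E0771 and to 0.180 to 8.23 CPM in MC38, with 4 to 7 of the 10 at 0 in E0771 and 6 to 9 at 0 in MC38. The difference in these sums rests on few markers, since 2 of the 10 passed the filter on low counts in E0771 and 0 in MC38. Fibroblast markers summed to 20 to 71.6 CPM in E0771 and 202 to 355 CPM in MC38, and endothelial markers to 10.9 to 16.2 CPM and 0.539 to 5.71 CPM. Levels below are CPM scaled by TMM over the 24 libraries, not divided by transcript length. They are used here to compare 1 gene between libraries and not different genes. In bulk RNA, fewer cells with a transcript and less transcript per cell cannot be told apart.

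All 10 members passed the filter on low counts in both lines. With TNF alone, 2 of 10 rose and 0 fell in each line at an adjusted p under 0.05 (edgeR's quasi-likelihood test, adjusted over all genes), where 2.32% of 12541 genes were called in E0771 and 1.09% of 13272 in MC38. The JNK and p38 phosphatase Dusp16 was among them in both lines, with Dusp8 in E0771 and Dusp1 in MC38. RG6146 alone left Dusp1 higher and Dusp16 lower in E0771 (2 of 10, with 10.8% of all genes called), and in MC38 edgeR called 0 of 10 (8.27% of all genes called), 0 at an unadjusted p under 0.05, and DESeq2 also called 0. Adding RG6146 to TNF in E0771 raised Dusp1 and Dusp8 and lowered Dusp16 (3 of 10, against 16.6% of all genes). In MC38 that comparison called 0 of 10 by edgeR (11.3% of all genes called), 4 at an unadjusted p under 0.05, and 1, Dusp2, by DESeq2. Adding TNF to RG6146 raised 1 of 10 in E0771 (Dusp8; 0.734% of all genes called) and 2 of 10 in MC38 (Dusp1 and Dusp16; 0.294% of all genes called). The comparisons within a line share groups of libraries and are not independent of each other.

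The members' median log2 fold change with TNF was 0.17 in E0771 and 0.82 in MC38, while the median over all tested genes was −0.02 and 0.02. The MC38 median includes TNF replicate 1, a library that stands apart and held the highest value of its group for most members. No median without that library is given. With RG6146 alone the members' median was −0.12 and −0.06, near the 0.00 and −0.01 of all genes. For the combination against TNF it was 0.06 in E0771 and −0.27 in MC38, against 0.00 and −0.03 for all genes. Individual members moved in opposite directions in that comparison in E0771, where Dusp16 and Dusp1 differed most.

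**Figure D2:**
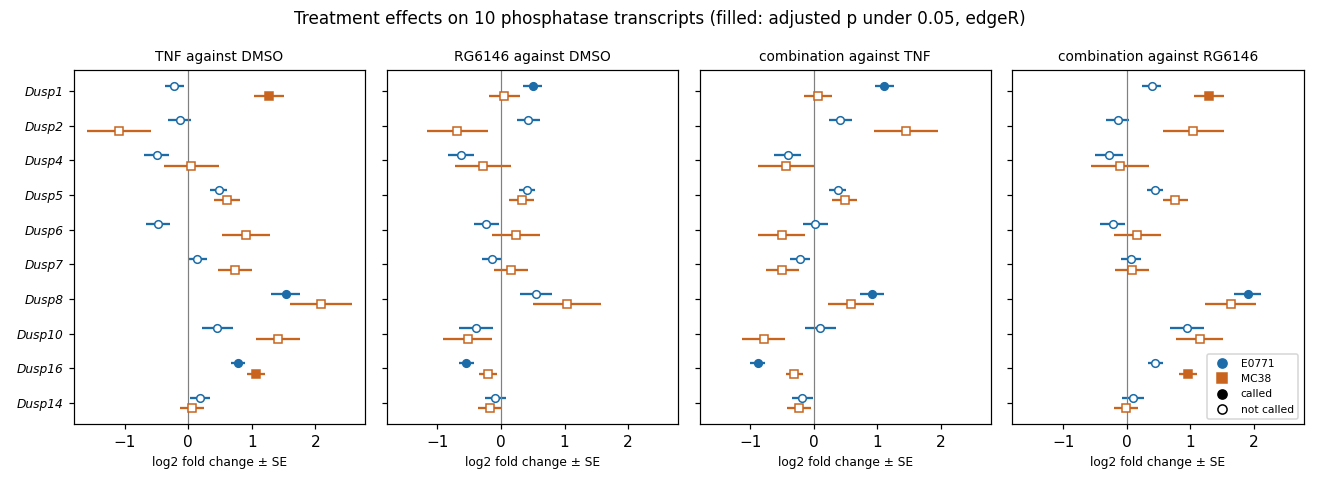
Log2 fold change ± SE (x axis) of the 10 phosphatase transcripts (y axis) in 4 treatment comparisons, 1 panel each; circles are E0771, squares MC38, and filled symbols passed an adjusted p under 0.05 in edgeR. Dusp16 is filled in both lines with TNF, while Dusp1 is filled in MC38 but not in E0771.

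Among the phosphatases that prefer JNK and p38, Dusp16 (also called MKP-7) was called with each agent alone in E0771, and in MC38 with TNF but not RG6146. In E0771 its level was 34.4, 32.8 and 31.8 CPM with DMSO, 57.4, 63.1 and 53.5 CPM with TNF, 23.0, 22.3 and 21.8 CPM with RG6146, and 27.1, 31.1 and 33.9 CPM with the combination. The TNF libraries were all above every other library of the line, the RG6146 libraries were all below, and the combination lay next to DMSO. The transcript rose by 0.79 ± 0.11 (log2, SE; 1.72-fold) with TNF (adjusted p = 0.000695), and was lowered by RG6146 both alone (−0.55 ± 0.12, adjusted p = 0.00705) and on top of TNF (−0.89 ± 0.11, adjusted p = 0.000100). In the combination against RG6146 its difference was 0.45 ± 0.12, adjusted p = 0.165.

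In MC38 the level of Dusp16 was 16.9, 17.6 and 15.7 CPM with DMSO and 37.8, 32.9 and 34.0 CPM with TNF. It was 14.3, 14.2 and 15.9 CPM with RG6146 and 28.6, 29.3 and 28.6 CPM with the combination. The TNF and combination libraries were all above the DMSO and RG6146 libraries. The rise with TNF was 1.07 ± 0.14 (2.1-fold, adjusted p = 0.000647), and that of the combination over RG6146 was 0.96 ± 0.14 (1.95-fold, adjusted p = 0.00457). The second call was lost without RG6146 replicate 2 (0.93, adjusted p = 0.0546). RG6146 alone gave −0.20 ± 0.14, adjusted p = 0.436, and its libraries overlapped those with DMSO. RG6146 on top of TNF gave −0.31 ± 0.13, adjusted p = 0.153, although the combination libraries were all below the TNF libraries.

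The difference between lines in the effect of RG6146 on top of TNF (E0771 minus MC38) was −0.64 ± 0.16 for Dusp16, adjusted p = 0.0357. It was the 1 member of 10 called in that test, where 2.28% of 14058 genes were called. The direction was the same in every alternative run, but the call was lost in 12 of 17. Among these were the fit with the replicate number as a block (−0.64, adjusted p = 0.0621) and the fit without the libraries that stand apart (adjusted p = 0.0694).

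Dusp8, another phosphatase that acts on JNK and p38, was low with DMSO and highest in the combination. In E0771 it was at 3.68, 3.76 and 2.55 CPM with DMSO, 6.30, 4.23 and 4.07 CPM with RG6146, 10.1, 11.7 and 7.81 CPM with TNF, and 18.9, 19.3 and 16.9 CPM with the combination. The 4 groups did not overlap. The rise with TNF was 1.53 ± 0.23 (2.89-fold, adjusted p = 0.00115), the rise of the combination over TNF 0.92 ± 0.19 (1.89-fold, adjusted p = 0.00484) and that over RG6146 1.90 ± 0.22 (3.74-fold, adjusted p = 0.000169). These 3 calls held in every alternative run. RG6146 alone gave 0.55 ± 0.25, adjusted p = 0.203.

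In MC38 Dusp8 was near the lower end of what this depth can measure, with 2 to 22 counts per library. The level was 0.539, 0.297 and 0.302 CPM with DMSO, 1.10, 2.08 and 1.52 CPM with TNF, and 2.24, 2.92 and 2.12 CPM with the combination. All TNF libraries were above all DMSO libraries, and the combination libraries were above the TNF libraries. The difference of 2.09 ± 0.48 with TNF did not pass the test (adjusted p = 0.0562), nor did that of 1.64 ± 0.40 for the combination over RG6146 (adjusted p = 0.213).

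Dusp10 (MKP-5), the remaining member of this class, was not called in either line. In E0771 it was at 11.2, 14.8 and 11.1 CPM with DMSO and 20.3, 21.4 and 9.67 CPM with TNF, so the third TNF library lay with or below the DMSO libraries. The difference was 0.46 ± 0.25, adjusted p = 0.454. Without TNF replicate 3 it was 0.73, adjusted p = 0.0303. In MC38 the levels were 2.69, 5.04 and 3.32 CPM with DMSO and 14.2, 7.96 and 8.04 CPM with TNF, with no overlap. The difference of 1.42 ± 0.35 had an adjusted p of 0.0809 in edgeR and 0.0129 in DESeq2. The combination was at 3.36, 7.17 and 7.33 CPM in MC38, all below the TNF libraries (−0.79 ± 0.34, adjusted p = 0.153).

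**Figure D3:**
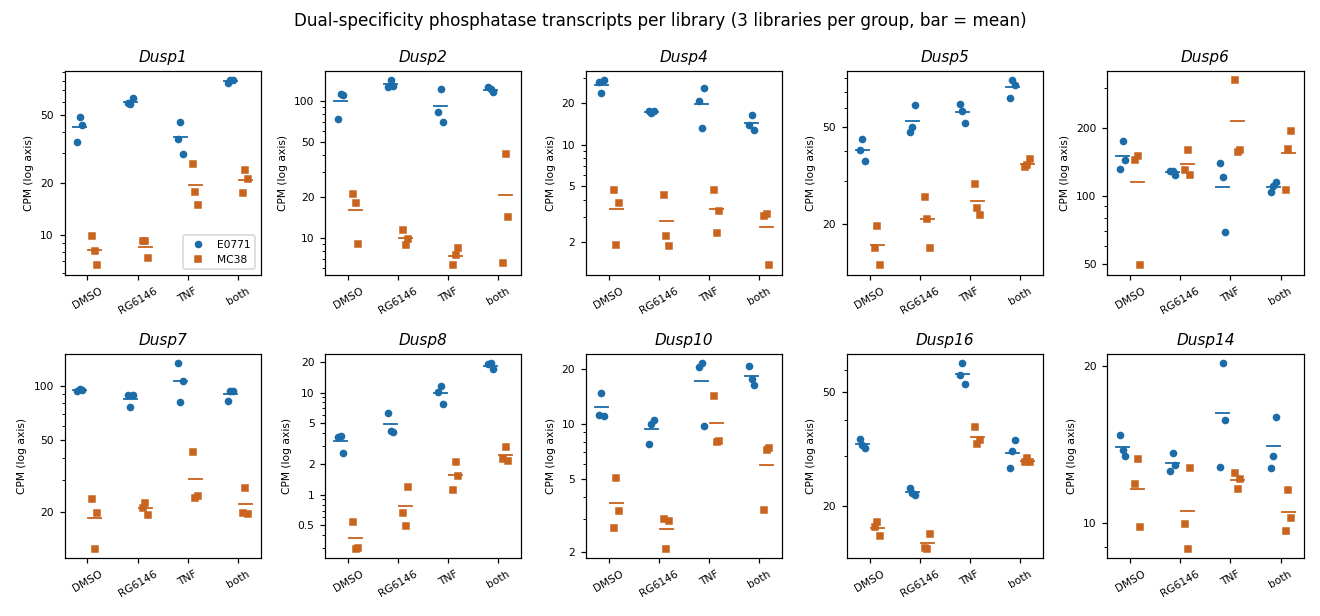
Level of each of the 10 phosphatase transcripts in the 24 libraries (CPM, log axis; 1 panel per gene), by treatment and line, 1 point per library; the bar is the group mean and "both" is the combination. In E0771 the Dusp8 combination libraries lie at 16.9 to 19.3 CPM and the Dusp16 TNF libraries at 53.5 to 63.1 CPM, each above all other libraries of that gene.

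Dusp1 (MKP-1), the inducible nuclear phosphatase of p38, JNK and ERK, behaved differently in the lines. In E0771 it was at 35.0, 49.0 and 44.1 CPM with DMSO and at 36.3, 45.9 and 29.9 CPM with TNF, which overlap (−0.22 ± 0.15, adjusted p = 0.577). RG6146 brought it to 58.9, 58.0 and 62.8 CPM and the combination to 77.0, 80.3 and 80.6 CPM, above every DMSO and TNF library. It rose by 1.11 ± 0.15 (2.16-fold) in the combination against TNF (adjusted p = 0.000153), a call that held in every alternative run. The rise with RG6146 alone, 0.50 ± 0.15 (1.41-fold), was near the threshold (adjusted p = 0.0440). That call was lost in 6 of 11 alternatives: scaling by library totals (0.44, adjusted p = 0.0690) and leaving out DMSO replicate 1 or 3 or any RG6146 replicate (adjusted p = 0.0925 to 0.194).

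In MC38 Dusp1 was at 9.88, 8.01 and 6.64 CPM with DMSO and 9.18, 9.16 and 7.31 CPM with RG6146. With TNF it was at 26.0, 17.9 and 15 CPM, and with the combination at 17.6, 24 and 21.2 CPM. Every library that received TNF was above every library that did not. The rise with TNF was 1.28 ± 0.24 (2.43-fold, adjusted p = 0.0131) and that of the combination over RG6146 was 1.29 ± 0.23 (2.45-fold, adjusted p = 0.0319), while RG6146 alone gave 0.05 ± 0.24 (adjusted p = 0.939). The TNF call was lost without the libraries that stand apart (1.01, adjusted p = 0.115), when only the groups compared were fitted (1.27, adjusted p = 0.117), and without DMSO replicate 2 (adjusted p = 0.0718) or replicate 3 (adjusted p = 0.0661). The call over RG6146 was lost without any RG6146 replicate or without combination replicate 2 or 3 (adjusted p = 0.115 to 0.200).

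The effect of TNF on Dusp1 differed between the lines by −1.45 ± 0.28 (E0771 minus MC38, adjusted p = 0.0242). It was the 1 member of 10 called in this test, where 0.206% of 14058 genes were called. The difference was −1.63 to −1.21 over the alternatives, and 6 of 17, all leaving out 1 library, took its adjusted p past 0.05 (0.0581 to 0.0792): E0771 DMSO replicate 2 or 3, E0771 TNF replicate 3, MC38 DMSO replicate 2 or 3, or MC38 TNF replicate 1. For RG6146 on top of TNF the difference between lines was 0.98 ± 0.26 for Dusp1, adjusted p = 0.0503 in edgeR and 0.0148 in DESeq2. The effect of RG6146 alone differed between lines in 0 of 10 members by edgeR (0.384% of all genes called), in 1, Dusp16, at an unadjusted p under 0.05, and in 0 by DESeq2.

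Whether the effects of the agents departed from adding up on the log scale was tested as an interaction. It was called for 0 of 10 members in E0771 by edgeR (0.0478% of all genes called), 1 was under an unadjusted p of 0.05 and DESeq2 called 0. That member was Dusp1, with 0.61 ± 0.21 (unadjusted p = 0.0109, adjusted p = 1). In MC38 edgeR again called 0 of 10 (0% of all genes called), 1 was under an unadjusted p of 0.05, Dusp2, and DESeq2 called 0.

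Dusp5, an inducible nuclear phosphatase specific for ERK, was higher in mean with each agent than without it in both lines, and was not called in any treatment comparison. In E0771 it was at 40.5, 44.7 and 36.2 CPM with DMSO, 62.3, 58.7 and 52.2 CPM with TNF, 47.9, 50.2 and 62.0 CPM with RG6146 and 65.9, 78.6 and 75.1 CPM with the combination. The DMSO libraries were the lowest and the combination libraries the highest, with TNF and RG6146 overlapping between them. Against DMSO the difference was 0.48 ± 0.13 with TNF (adjusted p = 0.0832, and 0.0427 in DESeq2) and 0.41 ± 0.13 with RG6146 (adjusted p = 0.0643). In MC38 it was at 15.8, 19.6 and 13.4 CPM with DMSO, 29.3, 23.1 and 21.7 CPM with TNF and 34.3, 35.0 and 36.9 CPM with the combination, and these 3 groups did not overlap. The difference was 0.60 ± 0.20 with TNF (adjusted p = 0.229) and 0.77 ± 0.20 for the combination over RG6146 (adjusted p = 0.297). The 547 bases of antisense exon noted above apply to these values.

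Dusp2 (PAC-1), a nuclear phosphatase best known from activated leukocytes, was at 73.2, 112 and 111 CPM with DMSO in E0771 and at 126, 141 and 128 CPM with RG6146. TNF gave 82.9, 123 and 70.3 CPM, overlapping DMSO, and the combination gave 125, 121 and 115 CPM. The combination differed from TNF by 0.42 ± 0.18 (adjusted p = 0.139). Leaving out TNF replicate 2, the library with little mitochondrial ribosomal RNA, made this 0.66 with an adjusted p of 0.00583. The same omission also brought Dusp4 (−0.66, adjusted p = 0.00546) and Dusp7 (−0.41, adjusted p = 0.0163) past the threshold, so 6 rather than 3 members were called. Over all genes, calls in the same fit went from 2079 of 12541 to 2898 of 12755.

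In MC38 Dusp2 was at 20.8, 17.9 and 9.05 CPM with DMSO, 11.4, 8.92 and 9.83 CPM with RG6146 and 6.30, 7.47 and 8.50 CPM with TNF. The combination libraries were at 6.58, 40.7 and 14.3 CPM, and the highest of them, replicate 2, was the library with 1999 CPM of leukocyte markers. In that library S100a8 stood at 1219 CPM, S100a9 at 591 CPM and Lyz2 at 57.3 CPM, all transcripts of myeloid cells, with the pan-leukocyte gene Ptprc at 25.9 CPM and the T cell gene Cd3d at 7.96 CPM, while Cd4, Cd79a, Adgre1, C1qa and C1qb were at 0. Over the MC38 libraries 5 to 17 of the 25 leukocyte markers were at 0. The combination differed from TNF by 1.45 ± 0.50 (adjusted p = 0.0768 in edgeR, 0.0207 in DESeq2). Without replicate 2 the difference was 0.43 (adjusted p = 0.532). The interaction of 2.14 ± 0.69 became 1.12 without it. The part of leukocyte transcripts in these values was not tested.

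**Figure D4:**
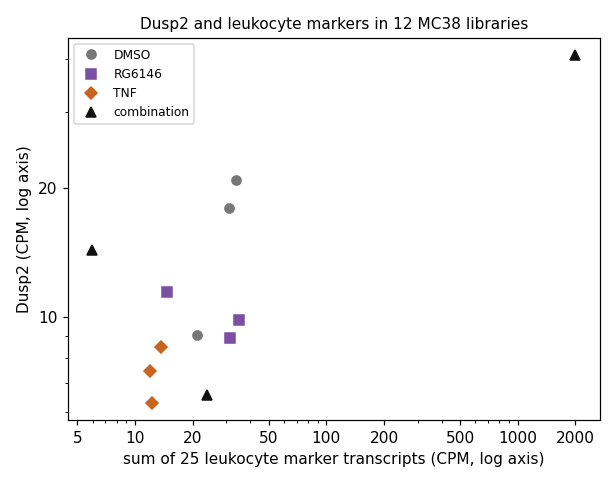
Dusp2 level (y axis, CPM, log axis) against the summed level of 25 leukocyte marker transcripts (x axis, CPM, log axis) in the 12 MC38 libraries, 1 point per library, by treatment. Combination replicate 2 stands alone at 1999 CPM of markers and 40.7 CPM of Dusp2; the other 11 libraries lie between 6.30 and 20.8 CPM of Dusp2.

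Dusp4 (MKP-2), the last of the inducible nuclear enzymes and a phosphatase of ERK and JNK, was not called in any treatment comparison. In E0771 it was at 28.2, 23.5 and 29.1 CPM with DMSO, 17.5, 16.7 and 17.4 CPM with RG6146, 20.5, 13.1 and 25.5 CPM with TNF and 13.9, 16.2 and 12.6 CPM with the combination. The RG6146 and combination libraries were all below the DMSO libraries. The difference with RG6146 was −0.63 ± 0.20, adjusted p = 0.0622, and −0.69, adjusted p = 0.0407, with scaling by library totals. In MC38 Dusp4 was at 1.35 to 4.73 CPM over the 12 libraries, and no group stood apart from the others.

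Of the members, Dusp6 and Dusp7 are the cytoplasmic phosphatases that prefer ERK, and neither was called in a treatment comparison. Dusp6 (MKP-3) was at 131, 174 and 144 CPM with DMSO and 139, 122 and 68.8 CPM with TNF in E0771 (−0.47 ± 0.19, adjusted p = 0.295). In MC38 it was at 144, 150 and 49.2 CPM with DMSO and 325, 156 and 159 CPM with TNF (0.91 ± 0.37, adjusted p = 0.330). The spread within groups was wide: 1 TNF library in E0771, and 1 DMSO and 1 TNF library in MC38, lay far from the others of their group. The difference between lines in the effect of TNF was −1.34 ± 0.45, adjusted p = 0.189. Dusp7 was at 93.7, 95.9 and 94.9 CPM with DMSO and 134, 81.1 and 106 CPM with TNF in E0771 (0.15 ± 0.15, adjusted p = 0.741). In MC38 it was at 23.7, 12.6 and 19.8 CPM with DMSO and 43.0, 24 and 24.7 CPM with TNF (0.74 ± 0.27, adjusted p = 0.258). In MC38 with TNF, replicate 1 held the highest value of its group for 8 of the 10 members, all but Dusp2 and Dusp8. The share of all genes highest in that library was not counted. Over genes with enough counts, its chi-square per degree of freedom was 31.7 against replicate 2 and 26.8 against replicate 3. Between replicates 2 and 3 it was 2.13, so the library stood apart well beyond these members.

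The atypical Dusp14 was not called in any comparison. Its level was 12.6 to 20.3 CPM over the 12 E0771 libraries and 8.92 to 13.2 CPM over the 12 MC38 libraries. With TNF the difference was 0.19 ± 0.16 in E0771 (adjusted p = 0.670) and 0.06 ± 0.19 in MC38 (adjusted p = 0.921), and with RG6146 it was −0.09 ± 0.17 and −0.17 ± 0.19.

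The levels of most members also differed between the untreated lines. With DMSO, 8 of 10 members were higher in E0771 than in MC38 and 0 were lower, in a comparison where 58.7% of 14058 genes were called in either direction. Dusp8 was 8.89-fold higher (3.15 ± 0.39, adjusted p = 3.45e-07), Dusp4 8.16-fold (3.03 ± 0.32, adjusted p = 3.15e-08) and Dusp2 6.19-fold (2.63 ± 0.38, adjusted p = 3.12e-06). Markers of leukocytes, the cells in which Dusp2 is best known, summed to 137 to 176 CPM in E0771 with DMSO. In MC38 with DMSO they summed to 21.1 to 33.6 CPM. Most of the E0771 sum was S100a8, with little Ptprc, as given above. Of the 25 markers, 12 to 16 were at 0 in these E0771 libraries and 10 to 13 in those of MC38. The part of leukocyte transcripts in the Dusp2 difference was not tested. Dusp1 was 5.25-fold and Dusp7 5.15-fold higher, followed by Dusp10 at 3.24-fold, Dusp5 at 2.47-fold and Dusp16 at 1.97-fold. These 8 calls held in every alternative run. Dusp6 (0.39 ± 0.32, adjusted p = 0.309) and Dusp14 (0.26 ± 0.17, adjusted p = 0.208) were not called. The lines come from different tumours, and line and tissue of origin cannot be told apart.

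Other genes, of the wider phosphatase family and of the pathway, were counted from lists that were chosen with earlier results of these data known. Of 12 other dual-specificity phosphatases tested in each line, edgeR called 0 with TNF in either line (2.32% of all genes called in E0771 and 1.09% in MC38). At an unadjusted p under 0.05 there were 1 in E0771 and 0 in MC38, and DESeq2 called 0. RG6146 lowered 3 of the 12 in E0771 (10.8% of all genes called) and 2 in MC38 (8.27%) and raised 0. In the combination against TNF 4 fell in each line (16.6% and 11.3% of all genes called). Several of these calls were unstable: with RG6146, Dusp18 and Dusp9 lost theirs in 5 and 6 of 11 alternatives in E0771 and in 3 and 8 of 12 in MC38, where the replicate block was among those for Dusp9. Dusp18 was among those that fell in the combination against TNF in MC38 (−1.10 ± 0.18), a call that held in every alternative. Of the MAP kinases themselves, edgeR called 0 of 11 in E0771 and 0 of 10 in MC38 with TNF (2.32% and 1.09% of all genes called). At an unadjusted p under 0.05 there was 1 in each, and DESeq2 called 0. RG6146 lowered 3 and raised 1 in E0771, the latter Mapk8, whose call was lost in 6 of 11 alternatives. Mapk4, an atypical MAP kinase, fell (−2.08 ± 0.34), as did Mapk7, which encodes ERK5 (−0.96 ± 0.19). In MC38 RG6146 changed 0 of 10 in edgeR, with 1 at an unadjusted p under 0.05 and 1 by DESeq2. Of the kinases that activate them, RG6146 raised 2 of 6 in E0771, Map2k2 and Map2k3. The call of Map2k2 was lost in 9 of 11 alternatives, among them the replicate block and the omission of any 1 library of the groups compared, and that of Map2k3 in 4 of 11, without DMSO replicate 1 or any RG6146 replicate. Of 7 in MC38 edgeR called 0, with 1 at an unadjusted p under 0.05 and 0 by DESeq2.

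Among genes that MAP kinase signalling is known to induce, TNF raised 2 of 10 ERK feedback genes in E0771, where 2.32% of all genes were called, and 1 of 10 in MC38, where 1.09% were. The E0771 call of Phlda1 (0.36 ± 0.08) was lost in 7 of 12 alternatives, among them the replicate block and the omission of any DMSO replicate. Ier3, an early stress-response gene, rose in both lines in every alternative (1.27 ± 0.09 and 1.39 ± 0.13). Of the immediate early genes, which encode mostly transcription factors switched on without new protein synthesis, TNF raised 7 of 15 in E0771 and 7 of 17 in MC38 and lowered 0 in either. Junb, an AP-1 subunit, rose by 2.22 ± 0.18 and 2.70 ± 0.18. Zfp36, which encodes a protein that destabilises mRNAs, rose by 2.51 ± 0.31 in E0771. RG6146 raised 6 and lowered 2 of the 15 in E0771, where 10.8% of all genes were called. It raised 4 and lowered 2 of the 17 in MC38, where 8.27% were. Jund, another AP-1 subunit, rose by 1.06 ± 0.08 in E0771, while the Fos-related Fosl1 fell in both lines (−0.76 ± 0.10 and −0.82 ± 0.14). In the combination against TNF, Jund rose in both lines, by 1.85 ± 0.09 and 2.19 ± 0.21.

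The genes whose pattern was most like that of each called member were found by Pearson's r of log2(CPM + 1), centred within each line, over the 24 libraries and among genes with a mean of at least 10 CPM in each line. For Dusp8 they were Nfkbia (r = 0.93), the inhibitor of NF-kB, Junb (0.92) and Dlgap4 (0.90). For Dusp16 they were Fam83g (0.91), Ccl7 (0.91) and Slfn2 (0.91), and for Dusp1 Sat1 (0.83), Susd6 (0.82) and Cemip2 (0.81). For Dusp5 they were Gadd45b (0.86), Junb (0.86) and Ier5 (0.86), and for Dusp10 Plk2 (0.90), Ccl2 (0.88) and Tgif1 (0.85). Junb was thus among the 3 nearest genes of both Dusp8 and Dusp5. The nearest genes of the other members called between the untreated lines were Tmsb10 (0.82), Gm9844 (0.79) and Rex1bd (0.78) for Dusp2, Gnb4 (0.85), Hnrnpr (0.81) and Btbd3 (0.81) for Dusp4, and Bmp2k (0.86), Cdk7 (0.85) and Mia2 (0.85) for Dusp7. These values describe libraries that share treatments, and no test was made of them.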

How the data were processed

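The deposited table holds raw read counts per gene for 24 libraries, whole numbers with 43629 gene identifiers, per the labels and the file's values. Per the submitters' processing notes, bcl2fastq 2.17.1.14, cutadapt 1.14, HISAT2 2.1.0, featureCounts of Subread 1.5.2 and the mm10 build were used. No strand setting or annotation release is stated in the sources used here. Symbols came from a reference list, which named 42462 identifiers, and positions from GENCODE vM21.

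Each line was fitted apart (12 libraries, 4 groups of 3, no covariate) with edgeR 4.0.16 in R 4.3.3: filterByExpr, TMM scaling and the two-sided quasi-likelihood test. Differences between lines came from 1 fit of all 24 libraries. P-values were adjusted by Benjamini-Hochberg over every gene tested; called means an adjusted p below 0.05. Fold changes used a prior count of 0.125, and SE is the absolute log2 fold change over the root of the F statistic. CPM use TMM factors of all 24 libraries.

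The alternatives were library totals alone, DESeq2 1.42.0, no filter on low counts, a replicate block, omission of the libraries that stand apart, only the groups compared, and omission of each library. Figures were drawn with matplotlib 3.10.9. All 10 members were named in every comparison. Of the other lists, counts were given, with at most 2 genes a direction of smallest p named, and for each called member the 3 most similar genes. The members, lists and rules were chosen with earlier results of these data known.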

Additional observations from a re-analysis of the deposited data

Results flagged for a closer look

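The effect of TNF on Dusp1 differed between the lines. The difference, E0771 minus MC38, was −1.45 on the log2 scale, with −0.22 ± 0.15 in E0771 and 1.28 ± 0.24 in MC38. The effect of RG6146 on top of TNF differed between the lines for Dusp16, by −0.645, with −0.89 ± 0.11 in E0771 and −0.31 ± 0.13 in MC38. Both differences passed an adjusted p of 0.05 in edgeR's test of the difference itself, and the call was lost in 6 of 17 alternatives for Dusp1 and in 12 of 17 for Dusp16.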

How the results depend on the processing

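The 8 differences between untreated lines, and in E0771 the calls of Dusp8 and Dusp16 with TNF, Dusp16 with RG6146, Dusp1, Dusp8 and Dusp16 in the combination against TNF and Dusp8 in the combination against RG6146, held in every alternative, as did Dusp16 with TNF in MC38. No member that was called reversed its direction. Counts of called members moved as follows. Without the filter on low counts, 4 members were called with TNF, 4 with RG6146 and 2 in the combination against RG6146 in E0771. The same setting added Dusp2 to the calls in the combination against TNF in E0771 (0.40, adjusted p = 0.0203 in edgeR). In MC38 that setting called 6 with TNF, 2 in the combination against TNF, 5 in the combination against RG6146 and 1 in the interaction. For differences between lines it called 3 with TNF, 1 with RG6146 and 2 in the combination against TNF. Calls over all genes also rose in number in each of these comparisons without the filter, but more genes were tested. With RG6146 in E0771 they went from 1357 of 12541 to 1653 of 23541, and with TNF in MC38 from 145 of 13272 to 574 of 25041. The share called fell in the E0771 comparisons and in the combination against TNF in MC38. In the other comparisons it rose. Fitting only the groups compared called 5 with RG6146 and 6 in the combination against RG6146 in E0771, and 1 with TNF in MC38. Over all genes that setting moved the calls from 1357 of 12541 to 3108 of 12197, from 92 of 12541 to 534 of 12043, and from 145 of 13272 to 69 of 12670. Leaving out the libraries that stand apart called 6 in the combination against TNF in E0771 and 1 with TNF in MC38. Calls over all genes went from 2079 of 12541 to 2898 of 12755 and from 145 of 13272 to 100 of 13357. DESeq2 called 3 with TNF in each line, 1 in the combination against TNF in MC38 and 2 in the difference between lines of that effect. Its calls over all genes with TNF were 340 of 12541 in E0771, against 291 in edgeR. With TNF in MC38 they were 326 of 13272, against 145. In the combination against TNF they were 1720 in MC38, against 1500, and in its difference between lines 573 of 14058, against 320. The cause of these changes was not tested. Leaving out 1 library at a time gave 2 to 4 members with TNF, 1 to 2 with RG6146 and 3 to 6 in the combination against TNF in E0771. Calls over all genes were then 164 to 622, 728 to 933 and 1266 to 2898. With every library they were 291, 1357 and 2079 of 12541. In MC38 the same omissions gave 1 to 2 members with TNF and 0 to 1 in the combination against TNF. In the combination against RG6146 they gave 0 to 2. Calls over all genes were then 95 to 160, 751 to 1195 and 18 to 27. With every library they were 145, 1500 and 39 of 13272. For the differences between lines, 0 to 1 members were called with TNF and 0 to 1 in the combination against TNF. Calls over all genes were then 7 to 327 and 65 to 709, and 29 and 320 of 14058 with every library.

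Libraries with the same replicate number did not deviate together: the correlation of their deviations was −0.296 to 0.215 in E0771 (4 of 18 pairs over 0.1) and −0.452 to 0.386 in MC38 (5 of 18). With the replicate number as a block, the difference between lines in the combination against TNF had 0 called members instead of 1, and the block changed no other call of a member. Depth limits Dusp8 in MC38, at 2 to 22 counts per library.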
